A study of Mus musculus with 12 samples.

Results

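The genes that make nucleotides and the one-carbon units used for them were examined for binding of the transcription factor MYC and its partner MAX. The group holds 31 genes named by function, all matched by symbol among 21887 mouse protein-coding genes. A gene counted as bound when a listed peak shared at least 1 bp with its annotated extent or the 1 kb on either side. The assay was ChIP-seq, the sequencing of DNA pulled down with an antibody, and the cells were RAW264.7, an established mouse macrophage-like line that becomes osteoclast-like with the cytokine RANKL. The labels describe it as a monocyte-derived cell line and give bone marrow as the source.

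Of 4 treatments, 1 was none (the labels give it no time), and the others lasted 4 h: RANKL (50 ng/ml), the BET inhibitor I-BET (500 nM) or both together. Each of the 2 antibodies has 1 peak list per treatment, so no difference between treatments has a replicate check and none carries a p-value. Untreated, RANKL, I-BET and combination lists, in that order, held 312, 299, 136 and 11 MYC peaks and 8839, 10889, 36785 and 6307 MAX peaks. Read depth is unknown from these files, and peaks were ranked within a list by the authors' score, rank 1 being the highest. Lists differ in length, so ranks are set side by side and cannot be read as a change between treatments. Peak lists hold no expression values, so the cell type was not checked against marker genes.

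Pyrimidines are built as a ring that is then joined to activated ribose (PRPP), while purines are assembled stepwise on PRPP up to inosine monophosphate, the branch point to AMP and GMP. Serine and folate enzymes supply the one-carbon units for the purine ring and for thymidylate, and ribonucleotide reductase turns ribonucleotides into the precursors of DNA. Several of these genes are known as targets of MYC, which binds DNA paired with MAX at E-boxes, most strongly at CACGTG. BET proteins read acetylated histones, and I-BET compounds block that contact.

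The promoter sequences of the 4 members with a MYC peak are shown first, and they cover only part of some MYC peaks. They are RefSeq promoters (GRCm38.p6, the mm10 assembly), each from 250 bases before to 50 after a start site, 5′ to 3′ on the gene's strand. Capitals mark CACGTG, which reads the same on both strands. The first Nme1 start site lies in chr11:93968223-93968522 (minus strand) and the second in chr11:93967976-93968275. Atic is at chr1:71556906-71557205 (plus strand), Ctps at chr4:120570227-120570526 (minus strand) and the Nme2 start under a MYC peak at chr11:93955734-93956033 (minus strand).
Nme1 first start: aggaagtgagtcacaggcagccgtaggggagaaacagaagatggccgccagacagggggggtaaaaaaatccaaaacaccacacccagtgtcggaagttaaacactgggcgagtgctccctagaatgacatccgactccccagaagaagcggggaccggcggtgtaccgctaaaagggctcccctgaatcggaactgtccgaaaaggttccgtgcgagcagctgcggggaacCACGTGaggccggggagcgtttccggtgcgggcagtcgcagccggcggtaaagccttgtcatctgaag
Nme1 second start: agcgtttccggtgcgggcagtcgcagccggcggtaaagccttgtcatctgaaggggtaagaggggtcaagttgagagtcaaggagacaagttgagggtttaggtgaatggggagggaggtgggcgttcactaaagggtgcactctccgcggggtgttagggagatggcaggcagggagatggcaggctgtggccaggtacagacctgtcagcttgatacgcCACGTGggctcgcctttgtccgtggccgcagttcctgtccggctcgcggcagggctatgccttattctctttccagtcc
Atic: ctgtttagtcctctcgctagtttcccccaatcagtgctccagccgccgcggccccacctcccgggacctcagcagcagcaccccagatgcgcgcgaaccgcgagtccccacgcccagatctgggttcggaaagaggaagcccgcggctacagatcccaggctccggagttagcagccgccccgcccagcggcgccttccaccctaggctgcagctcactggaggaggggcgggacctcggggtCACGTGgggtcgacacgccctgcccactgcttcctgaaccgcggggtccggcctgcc
Ctps: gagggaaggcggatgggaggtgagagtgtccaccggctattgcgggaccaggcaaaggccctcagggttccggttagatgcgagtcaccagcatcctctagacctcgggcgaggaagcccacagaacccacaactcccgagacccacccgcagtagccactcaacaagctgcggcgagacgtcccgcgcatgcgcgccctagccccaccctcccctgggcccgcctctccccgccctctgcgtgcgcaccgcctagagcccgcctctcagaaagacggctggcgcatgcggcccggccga
Nme2: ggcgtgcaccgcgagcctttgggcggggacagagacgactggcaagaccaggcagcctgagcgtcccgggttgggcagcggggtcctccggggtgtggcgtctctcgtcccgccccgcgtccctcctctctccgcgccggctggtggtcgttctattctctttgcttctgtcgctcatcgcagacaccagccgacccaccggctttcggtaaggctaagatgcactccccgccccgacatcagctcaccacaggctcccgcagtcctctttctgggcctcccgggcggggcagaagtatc

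CACGTG stood in both Nme1 windows, its first base 18 and 29 bases before the respective start site, and in the Atic window 7 bases before the start. The printed Ctps and Nme2 windows do not hold these letters. Most of the Ctps MYC peak (chr4:120569723-120570282) and part of the Nme2 MYC peak (chr11:93955586-93955887) lie outside the searched windows. The Atic MYC peak (chr1:71557199-71557398) likewise lies mostly past the end of its window. Of the 29 members with a listed start site (not Dhodh and Pfas), 5 had CACGTG in a promoter (17.2%), against 8.91% of 17492 coding genes. Counted by promoter, it was 6 of 36 for the members and 7.84% of 21263 promoters of the same length. The other 3 were Tyms, Paics and Impdh2, shown here with 30 bases on either side of the E-box from chr5:30073651-30073716 (minus strand), chr5:76951069-76951134 (plus strand) and chr9:108560296-108560361 (plus strand).
Tyms: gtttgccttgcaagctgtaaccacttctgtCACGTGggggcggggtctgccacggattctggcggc
Paics: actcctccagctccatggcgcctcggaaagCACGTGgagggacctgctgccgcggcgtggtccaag
Impdh2: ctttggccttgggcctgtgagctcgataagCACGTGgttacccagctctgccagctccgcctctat

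All 6 of these promoters overlapped a MAX peak in untreated cells, with RANKL and with I-BET, and the site itself was inside that peak. With the combination the Tyms site was outside any MAX peak and the others stayed inside. In untreated cells 25 member promoters overlapped a MAX peak and 6 of them held CACGTG, while 0 of the 11 others did. Over all coding promoters the shares were 17.9% under an untreated MAX peak and 5.16% elsewhere. The variant CACGCG, searched on both strands as CACGCG and CGCGTG, was found at Psat1, Shmt1 and Shmt2 (3 of 29 genes, against 13.7% of all). CATGTG, searched as CATGTG and CACATG, was found at Adss and Prps2 (2 of 29, against 13.2%). No occurrence of these 3 motifs in the member promoters overlapped another. Member promoters had a median GC content of 61.0%, and all coding promoters 56.3%. A match is a description of letters, and the windows end 50 bases after the start.

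MAX was listed at most of these genes in every treatment. In untreated cells 26 of the 31 members had a MAX peak (83.9%, exact Clopper-Pearson 95% interval 66.3 to 94.5), against 29.8% of all coding genes. With RANKL it was 27 (87.1%) against 34.5%, with I-BET all 31 against 58.7%, and with the combination 22 (71.0%) against 23.5%. Intervals cover counting error only. Members have a median extent of 22369 bp and coding genes one of 17169 bp, and long genes offer more room for a peak. Counting only peaks within 1 kb of a start site, 23 of 29 members had 1 in untreated cells against 25.1% of coding genes. The same counts were 24 against 29.2% with RANKL, 29 against 51.6% with I-BET and 19 against 19.5% with the combination.

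**Figure D1:**
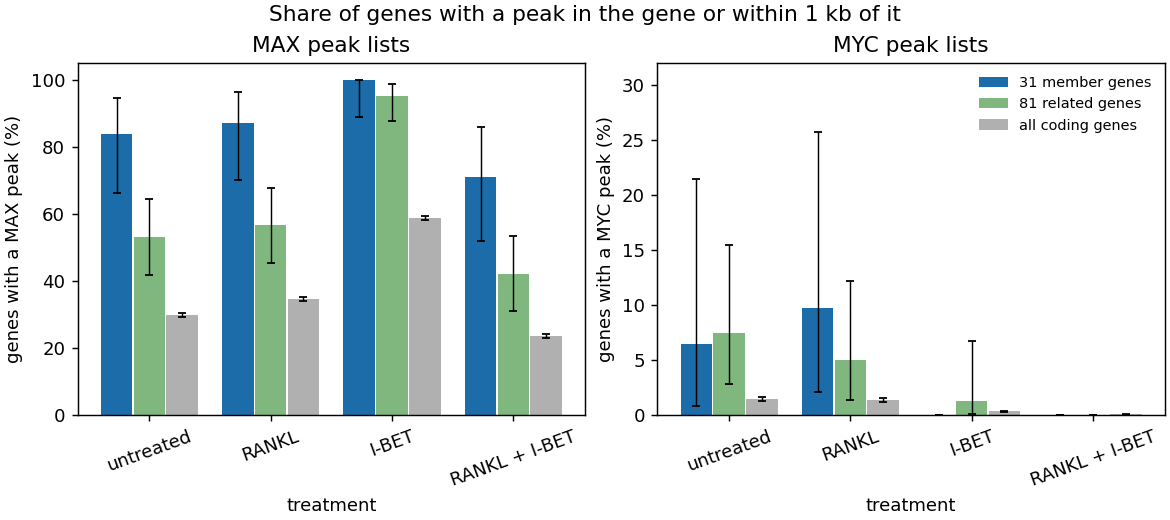
Share of genes (%) with a MAX peak (left) or a MYC peak (right) in the gene or within 1 kb of it, by treatment, for the 31 members, 81 related genes and 21887 coding genes; bars start at 0 and lines are exact 95% intervals, drawn where the count is above 0. Member shares lie between 71.0% and 100% for MAX and reach 9.68% for MYC with RANKL.

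Across treatments 22 members (71.0%) had a MAX peak in all 4 lists, against 20.3% of coding genes. Another 4 (Umps, Tyms, Rrm1 and Rrm2) lacked one only with the combination (12.9%, against 6.60% of coding genes). Adsl had one with RANKL and with I-BET only (3.23%, against 5.71%). Ctps2, Prps1, Prps2 and Dck had one with I-BET alone (12.9%, against 20.7%). No member was without a MAX peak in every treatment, while 41.1% of coding genes were. When the 6307 top-ranked peaks of each MAX list were used, 20 members were bound in all 4 treatments, against 14.8% of coding genes.

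Members also stood high in the lists. Taking the best-ranked peak of each gene, the median member peak lay at 22.4% of the untreated list, counted from the top, and the median over all coding genes with a peak at 43.1%. Within the top 10% of that list were 8 of the 26 bound members (30.8%), against 13.5% of bound coding genes. Gmps is among these 8 through a peak within 1 kb of the start of Slc33a1 and not at its own start. The median of 22.4% is a single peak that Ppat and Paics share. With RANKL the medians were 17.2% and 40.9%, with I-BET 4.29% and 19.2%, and with the combination 35.9% and 44.5%.

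**Figure D2:**
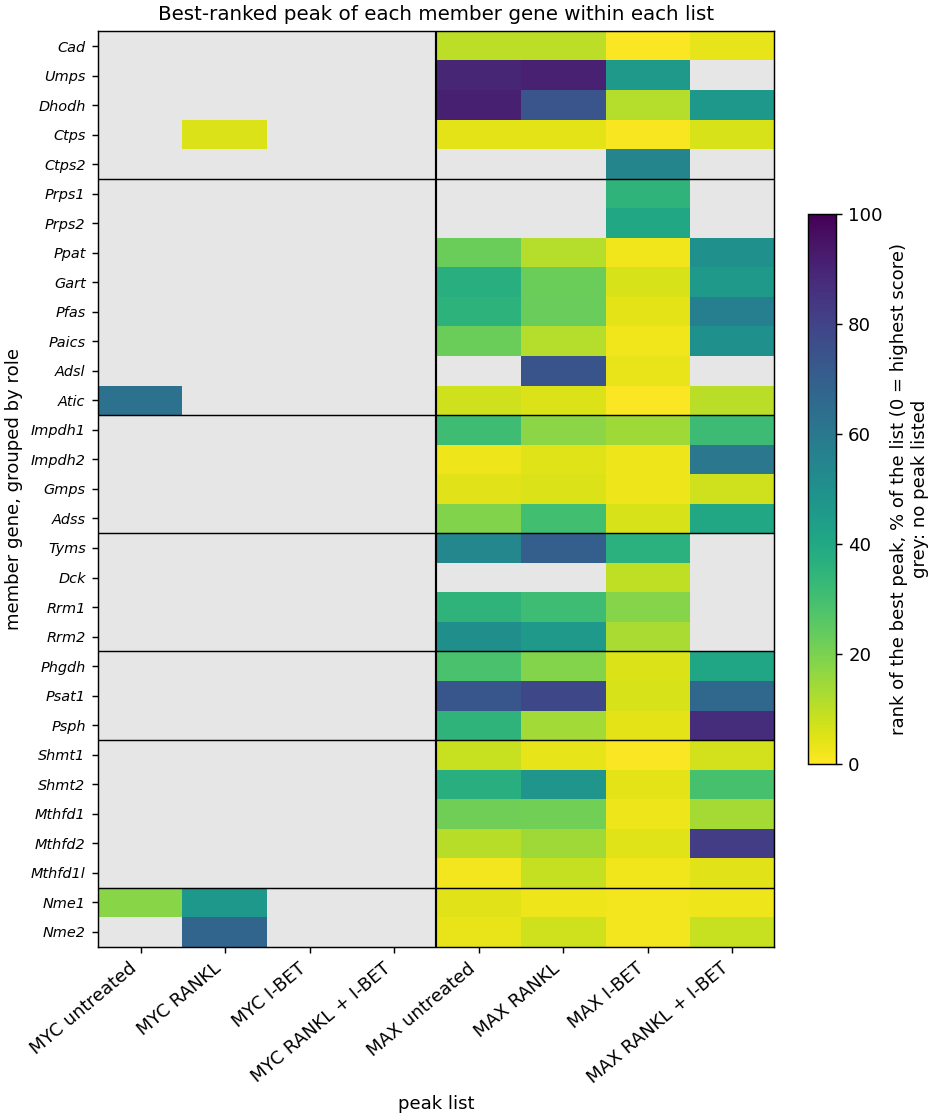
Best-ranked peak of each member (rows, grouped by role) in each of the 8 peak lists (columns), coloured by its rank as a percentage of the list, with 0 the highest score and grey for no listed peak. Ctps, Atic, Nme1 and Nme2 are the members with a MYC peak, and Tyms, Dck, Rrm1 and Rrm2 are all grey in the MAX list of the combination.

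Of the 5 pyrimidine genes, 4 had a MAX peak in untreated cells. Cad, the multifunctional enzyme of the first pyrimidine steps, held MAX ranks 890, 1083, 208 and 228 in the untreated, RANKL, I-BET and combination lists. Its peaks were centred 71 to 227 bp inside the gene from the start site (chr5:31054655-31055056 in untreated cells). Ctps, which makes CTP from UTP, was higher in the untreated and RANKL lists, with ranks 358, 441, 346 and 370. Counted from the top, Cad stood at 10.1% of the untreated list and Ctps at 4.05%.

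The next enzymes of the pathway stood low in the untreated list. Dhodh, the mitochondrial dihydroorotate dehydrogenase, held ranks 8058, 8015, 4070 and 2950. Umps, which forms UMP, held ranks 7894, 9877 and 16931 and had no peak with the combination. Counted from the top, the untreated peaks stood at 89.3% (Umps) and 91.2% (Dhodh) of that list. Dhodh stood at 11.1% of the I-BET list and 46.8% of the combination list, where the medians over bound coding genes were 19.2% and 44.5%. Ctps2, the paralogue of Ctps, had a single MAX peak, rank 20094 of 36785 with I-BET, and none in the other lists.

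**Figure D3:**
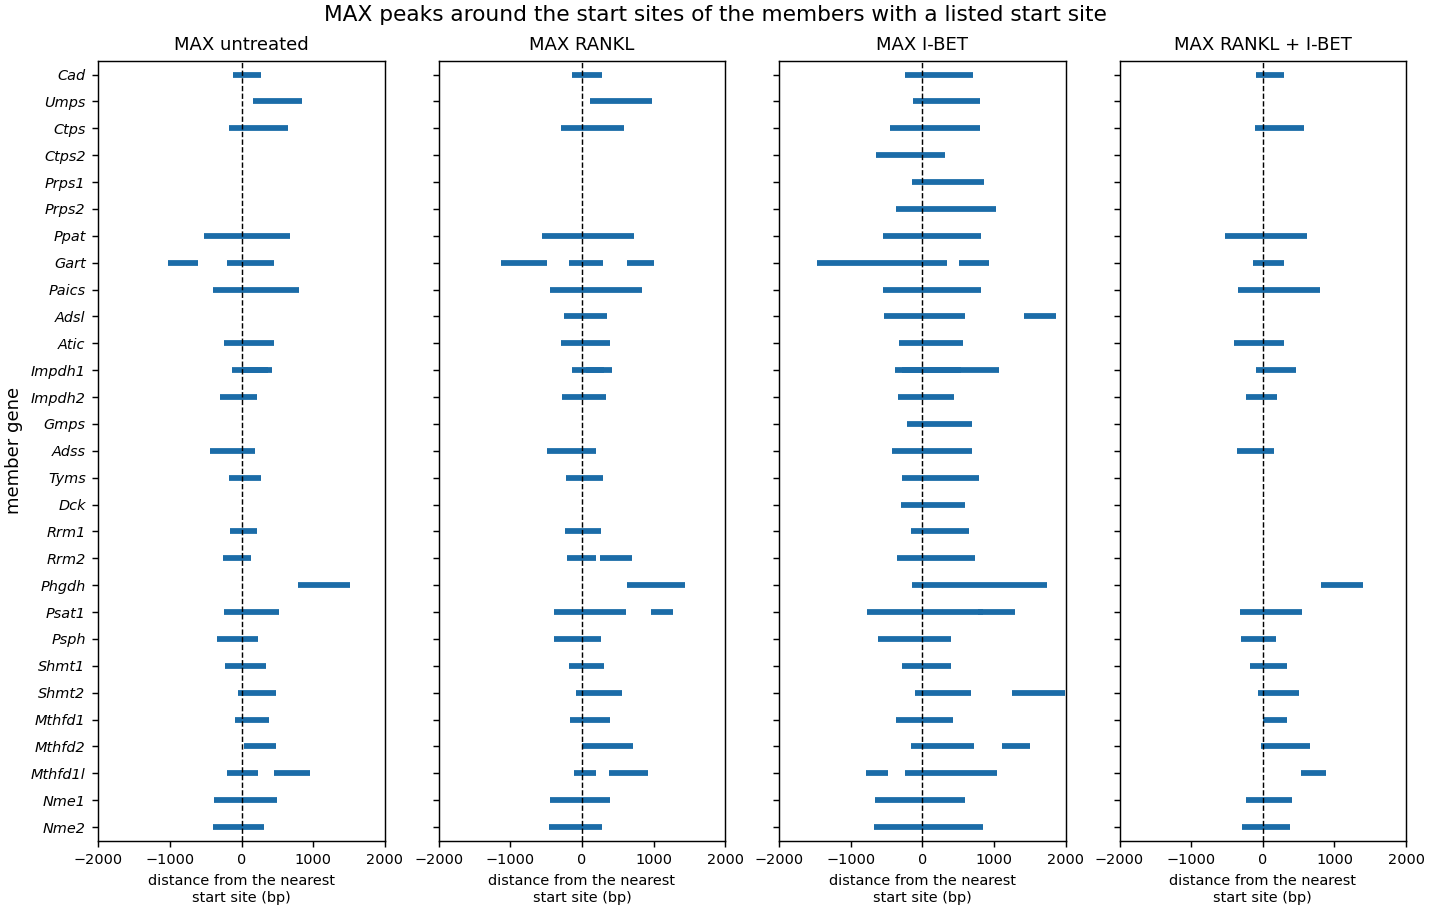
MAX peaks (bars) of the 29 members with a listed start site, by distance of the peak from the nearest start site in bp (negative is before the start; peaks beyond the axis are not drawn), 1 panel per treatment. Most bars cover the start site, the Phgdh bar begins inside the gene except with I-BET, the Umps bar does so in untreated cells and with RANKL, and Gmps has a bar with I-BET alone.

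For purines, MAX was listed at 5 of the 8 genes of PRPP and inosine monophosphate synthesis in untreated cells. Ppat, the first committed enzyme, and Paics, which acts further along, are neighbours on chromosome 5 whose extents overlap by 277 bases. They shared 1 peak over both start sites, chr5:76950900-76952098 in untreated cells, 1199 bp wide, with ranks 1981, 1207, 813 and 3144. This pair is therefore a single binding site counted at 2 genes. The start of the predicted gene LOC115486295 also lay within 1 kb of it.

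Gart, a trifunctional purine enzyme, had 2 untreated peaks, ranks 3254 and 4094, the second of them 813 bp before its start and close to the start of the neighbouring gene Son. With the combination the peak at its own start was listed (rank 2918) and the one before it was not. Pfas, which converts FGAR to FGAM, held ranks 3132, 2501, 1462 and 3588. Atic, the last enzyme of the pathway, was the highest of these genes in each list, with ranks 622, 581, 177 and 651.

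Adsl, which acts both before and after inosine monophosphate, had no untreated peak. It was listed with RANKL at rank 8068 (106.3 by the authors' score) and with I-BET at rank 1160, and not with the combination. The PRPP synthetases Prps1 and Prps2 had MAX peaks at their starts with I-BET alone, at ranks 12831 and 14686.

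Ctps2, Prps1 and Prps2 are the 3 members on the X chromosome, and each of the 28 autosomal members except Adsl and Dck had an untreated MAX peak. Of all X-linked coding genes, 62 of 966 had an untreated MAX peak (6.42%), against 31.3% of autosomal ones. With RANKL the shares were 8.49% and 36.1%, with I-BET 32.5% and 60.7%, and with the combination 3.83% and 24.7%. The missing listings of these 3 members thus go with their chromosome, and its part in them was not tested.

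All 4 genes that lead from inosine monophosphate to AMP and GMP had a MAX peak in every list. Impdh2, the inducible IMP dehydrogenase, held ranks 237, 511, 941 and 3818. Its paralogue Impdh1 held ranks 2741, 1877, 5297 and 1972 with the best peak at its second start site, 4067 bases from the first. Adss, which starts the branch to AMP, held ranks 1661, 3279, 2198 and 2560. Impdh2 was above Impdh1 in the untreated, RANKL and I-BET lists and below it in the combination list.

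Gmps, which makes GMP, was bound by the extent rule through a peak that is not at its listed start. Ranks 381, 591, 992 and 451 belong to a peak centred at -11394, -11419, -11653 and -11366 bp from that start (chr3:63964466-63965032 in untreated cells), within 1 kb of the start of Slc33a1. A peak at the Gmps start itself was listed with I-BET alone (chr3:63975932-63976837, rank 6827). Counted at start sites, Gmps therefore joins the members listed with I-BET alone.

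Some members had MAX peaks far from the start besides the one there. Ppat had a peak 290 bp wide with RANKL (rank 6316) and another at the same place with I-BET (rank 9928), centred 22241 and 22231 bp into the gene, and none there in the other lists. Mthfd1 had a peak centred 63848 bp into the gene with RANKL (rank 3326) and at 63943 bp with I-BET (rank 9710), within 1 kb of the start of the predicted gene Gm40443. Impdh2 had a 2435 bp wide I-BET peak (rank 4636) centred 7280 bp from its start, past the end of the gene and within 1 kb of the starts of Dalrd3 and Ndufaf3. These peaks add no member to any count, since each gene also had a peak at its own start in the same list.

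The 4 deoxynucleotide genes had no MAX peak with the combination, where 23.5% of coding genes had one and the exact 95% interval for 0 of 4 reaches 60.2%. Rrm1, the large subunit of ribonucleotide reductase, held ranks 3085, 3397 and 6653 in the untreated, RANKL and I-BET lists. Rrm2, the small subunit, held ranks 4430, 4994 and 4664. Tyms, thymidylate synthase, held ranks 4760, 7591 and 13363, and Dck, deoxycytidine kinase, was listed with I-BET alone at rank 3512. All of these peaks stood below those of Cad, Ctps, Atic and Impdh2 in each of these 3 lists. The other 27 members had a MAX peak with the combination in 22 cases. The group is small, and the missing listing was not tested.

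The serine synthesis genes all had a MAX peak in every list. Phgdh, the first enzyme, held ranks 2529, 2030, 1877 and 2596. The untreated Phgdh peak was centred 1152 bp inside the gene (chr3:98338457-98339176) and did not reach the start site, which the 1883 bp wide I-BET peak did cover. Psat1, the second enzyme, held ranks 6470, 8520, 2170 and 4171. Psph, the third, held ranks 3100, 1502, 1492 and 5485 with a peak that covered its start and lay within 1 kb of the start of Cct6a, a chaperonin gene.

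The 5 folate genes likewise had a MAX peak in every list. Shmt1, the cytosolic serine hydroxymethyltransferase, held ranks 740, 425, 213 and 429, and the mitochondrial Shmt2 ranks 3314, 5215, 1577 and 1846. Mthfd1, the cytosolic trifunctional enzyme, held ranks 1930, 2309, 990 and 859. Shmt1 thus stood above Shmt2 in all 4 lists.

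Among the mitochondrial folate genes, Mthfd1l had the highest-ranked untreated peak of any member, rank 154, centred 702 bp inside the gene (chr10:3973527-3974027). A second untreated Mthfd1l peak, rank 2278, lay over the start site and was not listed with the combination, where the inner peak held rank 285. Mthfd2 held ranks 947, 1561, 1838 and 5183 with the peak near its own start. A further peak within its window, centred at -8468 bp from that start in untreated cells, lies within 1 kb of the start of Mob1a. Its ranks were 2794, 7156, 5477 and 5172, so with the combination it stood 11 places above the Mthfd2 start.

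The nucleoside diphosphate kinases Nme1 and Nme2, which pass phosphate between nucleotides, are neighbours on chromosome 11, 2668 bases apart. Nme1 held MAX ranks 409, 294, 700 and 169, and Nme2 ranks 292, 777, 596 and 532. In the combination list Nme1 stood at 2.68% and Nme2 at 8.44%, counted from the top. Each gene had peaks of its own, and no peak spanned both. The Nme1 peaks, MYC included, also lay within 1 kb of a start of the predicted gene Gm35198.

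MYC was listed at few of these genes. In untreated cells 2 of the 31 members had a MYC peak (6.45%, exact 95% interval 0.791 to 21.4), against 1.42% of coding genes, namely Atic and Nme1. With RANKL 3 had one (9.68%, 2.04 to 25.8), against 1.35%, namely Ctps, Nme1 and Nme2. With I-BET it was 0 of 31 against 0.292%, and with the combination 0 of 31 against 0.0366%, and a count of 0 allows a share of up to 9.68% (3 counts of 31) or, by the exact 95% interval, 11.2%. Within 1 kb of a start site the counts were again 2 (of 29) in untreated cells and 3 with RANKL, each against 1.14% of coding genes. They were 0 with I-BET against 0.0572% and 0 with the combination against 0.0286%. The other 27 members (87.1%, against 97.7% of coding genes) had no listed MYC peak in any treatment. Among them were Cad, Impdh2, Shmt1 and Mthfd1l with their high-ranked MAX peaks. The MYC lists are short, and a gene without a listed peak is not shown to lack MYC.

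Nme1 was the member with MYC in both lists, at rank 56 of 312 in untreated cells (chr11:93968243-93968419, score 143.0) and rank 140 of 299 with RANKL (chr11:93967894-93968384, score 109.3). The untreated peak was 177 bp wide and contained the first CACGTG printed above, while the second lay 188 bases outside it. The RANKL peak was 491 bp wide and contained both. Nme2 had a MYC peak with RANKL alone, rank 202, 302 bp wide, centred 46 bp inside the gene from its second start (chr11:93955586-93955887).

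Ctps had the highest-ranked MYC peak of any member, rank 16 of 299 with RANKL (chr4:120569723-120570282, score 213.7), and none in untreated cells. The peak was 560 bp wide and covered the first start site and reached into the gene without reaching the second start, 817 bases from the first. Atic had an untreated MYC peak at rank 196 of 312 (chr1:71557199-71557398, score 93.0) and none with RANKL. This 200 bp peak lay inside the gene, and the CACGTG before the start was 44 bases outside it. MAX peaks covered the first Ctps start, the Atic start, both Nme1 starts and the second Nme2 start in the 4 treatments, also where MYC was not listed.

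**Figure D4:**
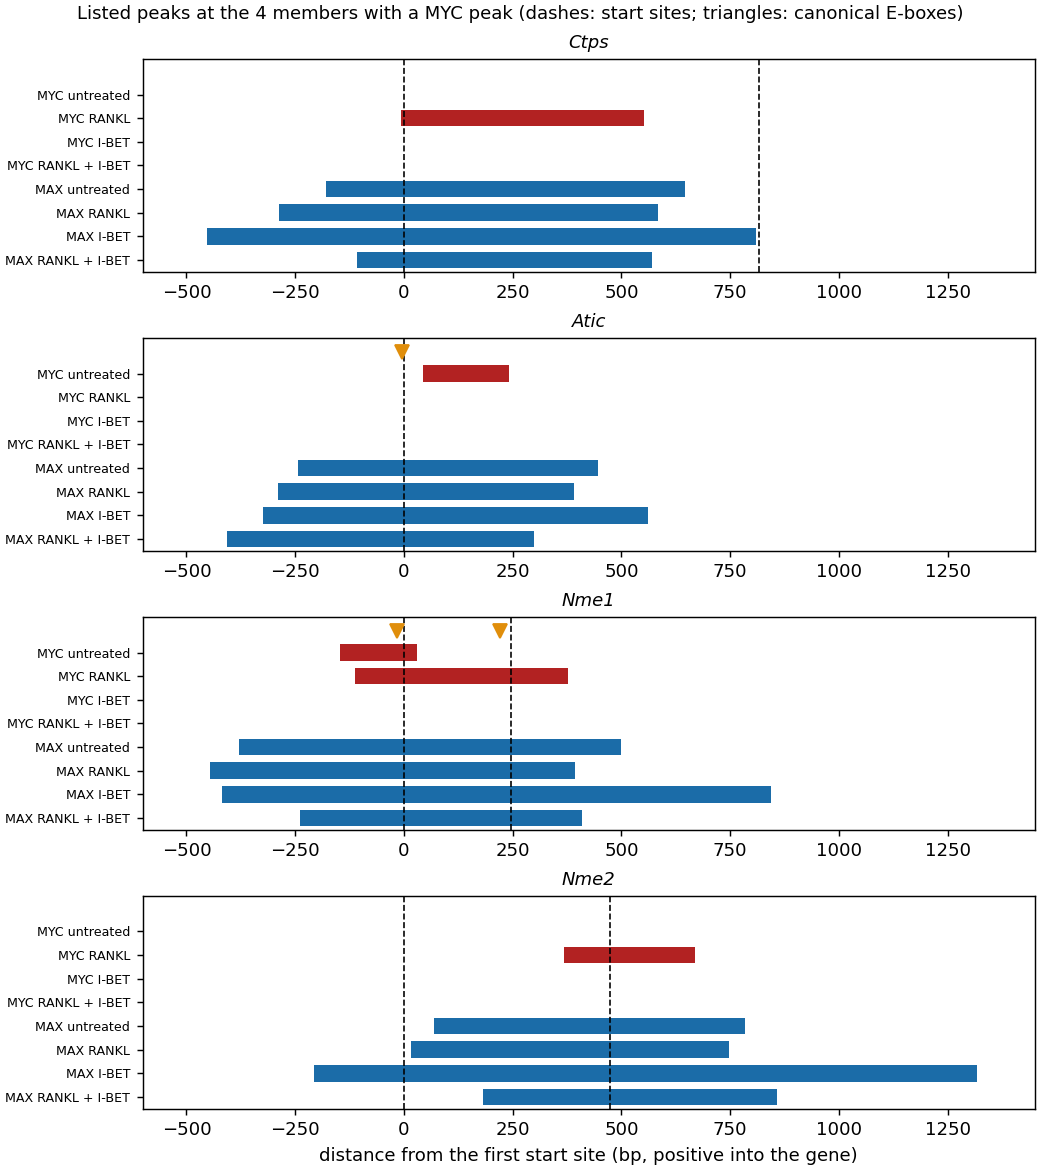
Listed MYC (red) and MAX (blue) peaks at Ctps, Atic, Nme1 and Nme2 by distance from the first start site in bp (positive into the gene), 1 row per peak list, with dashes at start sites and triangles at CACGTG within the promoter windows. MYC bars are in the untreated and RANKL rows only and lie within the span of the MAX bars, which are present in all 4 MAX rows.

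All 5 member MYC peaks overlapped a MAX peak of the same treatment, 2 of 2 in untreated cells and 3 of 3 with RANKL, as 95.2% and 93.6% of the whole MYC lists did. Among genes with a MAX peak, MYC was listed at 2 of 26 members in untreated cells (7.69%) and at 4.61% of coding genes. With RANKL it was 3 of 27 (11.1%) and 3.90%. The interval for the members with RANKL, 2.35% to 29.2%, is wide with so few genes and covers counting error only. The difference from all coding genes was not tested.

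Member MAX peaks lay at start sites, mostly with their centre just inside the gene. Of the members with a start site and a MAX peak in untreated cells, the best-ranked peak was within 1 kb of the start in 23 of 24 cases, against 76.5% over coding genes. Among these 23 peaks 18 were centred inside the gene (78.3%), at a median of 102 bp from the start, while for coding genes it was 38.2%, with a median of -43.5 bp. With RANKL the shares were 75.0% and 42.7%, with I-BET 85.7% and 61.4%, and with the combination 77.8% and 40.5%. The lists share the genes, so these are not independent counts.

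With RANKL, compared with untreated cells, MAX was added at 1 member and lost at none. Adsl was added (1 of 31, with 7.60% of coding genes added) and 0 members were lost, against 2.92%. Of the 26 members bound in untreated cells, all were listed again, while 9.81% of the bound coding genes were not. For MYC, Ctps and Nme2 were added (6.45%, against 0.667% of coding genes), Atic was no longer listed (3.23%, against 0.736%) and Nme1 was listed in both. Of all coding genes with an untreated MYC peak, 51.9% were not listed with RANKL. With the 6307 top peaks of each MAX list, 0 were added, against 4.79% of coding genes, and Tyms was lost, against 4.90%. With the 136 top peaks of each MYC list 1 member was added (Ctps) and 1 lost (Nme1, rank 140 with RANKL), so that no member had MYC in both.

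With I-BET alone, all 5 members that lacked an untreated MAX peak had one, namely Ctps2, Prps1, Prps2, Adsl and Dck. These are 16.1% of the members, against 29.0% of coding genes added, a share that is limited by how many members were already bound. Of the coding genes without an untreated peak 41.3% were added. Scores in the I-BET MAX list ran from 0 to 3207, against 49.7 to 1722 in the untreated list. Read depth is unknown, so an added listing does not by itself show new binding. Lost were 0 members, against 0.0594%. Both members with an untreated MYC peak, Atic and Nme1, had none with I-BET (2 of 31 lost, against 1.29%, and 0 added, against 0.169%). Of all coding genes with an untreated MYC peak, 91.3% were not listed with I-BET. The I-BET MYC list was unlike the untreated one, with a median peak width of 72.5 bp against 260 bp. Of its 136 peaks 37.5% overlapped a MAX peak of the same treatment, against 95.2% in untreated cells. A MYC peak missing from that list therefore does not show that I-BET removed MYC.

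The I-BET MAX list is the longest, and part of its additions lay away from start sites. Of 53 pairings of a member with an I-BET peak, 19 involved a peak that overlapped no MAX peak of another treatment. Of those, 6 were within 1 kb of the member's start (Ctps2, Prps1, Prps2, Gmps, Dck and Mthfd1l), their median width being 929 bp. The other 13 were farther from the start of 9 genes, 3 of them in Mthfd1l. Their median width was 392 bp and their median rank 21770 of 36785. When only the 6307 top peaks of each MAX list were used, I-BET added 4 members (Adsl, Dck, Dhodh and Psat1), against 7.53% of coding genes, and lost Tyms and Rrm1, against 3.79%.

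Member MAX peaks were wider with I-BET, as peaks were in general. All 29 untreated peaks at members overlapped an I-BET peak, and 28 of the 29 were wider there, by a median factor of 2.02. Over all untreated peaks 97.5% overlapped an I-BET peak, 7946 of those 8615 were wider there, and the median factor was 1.90. With RANKL the factor was 1.07 for members and 1.13 for all peaks, and with the combination 0.877 and 0.892. Only untreated peaks that overlapped a peak of the treatment enter these factors. With the combination they were 22 of the 29 member peaks and 58.9% of all untreated peaks. With RANKL they were all 29 and 82.0%. The factors for members were thus near those of all peaks.

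RANKL with I-BET was compared with RANKL alone and with I-BET alone. Against RANKL, 5 members lost their MAX peak (16.1%, against 12.4% of coding genes) and 0 were added, against 1.40%. They were Umps, Adsl, Tyms, Rrm1 and Rrm2. Of the members bound with RANKL the loss was 5 of 27 (18.5%), while 36.0% of bound coding genes were lost. With the 6307 top peaks of each list 2 members were lost (Rrm1 and Rrm2), against 4.54% of coding genes, and 2 added (Dhodh and Psat1), against 4.97%. Against I-BET alone 9 members were lost (29.0%, against 35.3%) and 0 added, against 0 coding genes. All 31 members were bound with I-BET, and of the coding genes bound there 60.0% were lost. With equal numbers of peaks 3 members were lost, against 7.21% of coding genes. The MYC peaks of Ctps, Nme1 and Nme2 were not listed with the combination (3 of 31 lost, against 1.32%, with 0 added against 0.00457%). Of all coding genes with a MYC peak under RANKL, 97.6% were not listed with the combination. Against I-BET alone no member could lose a MYC peak (0.288% of coding genes did) and 0 gained one (0.0320%).

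By sites rather than genes, the peaks of the 4 MAX lists, merged over the whole genome where they overlap, gave 52 regions that reach into a member window. Of these, 23 were listed in all 4 treatments (44.2%), against 12.9% of 37124 regions in the whole series. With I-BET alone were 19 (36.5%), against 66.9% of all regions. A region counts as listed in a treatment also where that peak itself stays outside the window, as past the end of Impdh2.

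A further 81 genes belong to the surrounding pathways (salvage and kinases, folate and methyl cycle, breakdown). In untreated cells 43 had a MAX peak (53.1%), with RANKL 46, with I-BET 77 and with the combination 34 (56.8%, 95.1% and 42.0%). All coding genes gave 29.8%, 34.5%, 58.7% and 23.5% in the same order. Salvage enzymes and nucleotide kinases had 18 of 32 in untreated cells, folate and methyl-cycle genes 15 of 27, and genes of nucleotide breakdown 10 of 22. MYC was listed at 6 of the 81 in untreated cells, at 4 with RANKL, at 1 with I-BET and at 0 with the combination (7.41%, 4.94%, 1.23% and 0%). The shares over coding genes were 1.42%, 1.35%, 0.292% and 0.0366%.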

How the data were processed

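MYC and MAX ChIP-seq peak lists from RAW264.7 cells were used, 8 lists in all. The 4 input libraries were left out. The deposited score of each peak is the authors' value, and in every row 3 call sets (numbered 3, 5 and 7) are joined. FastQC, Bowtie2 2.3.4.1, MACS2 2.1.1.20160309 and the builds mm10 and GRCm38 are named in the submitters' processing notes. Calling thresholds, use of input and duplicate handling are each not given in the sources used here. MYC and MAX lists carry different tags, so counts were compared within an antibody.

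Starts were raised by 1, assuming the BED convention. Gene extents, start sites and promoter sequences came from RefSeq tables (GRCm38.p6). Groups came from sample titles. No test was run, since each group has 1 list. Members, related genes and alternatives were chosen with earlier results of these data known. Full values were given for members with a MYC peak or with MAX listings that differ between treatments, and related genes were named where they had a MYC peak. Other members and the X-linked comparison were described with their values already seen. The alternatives were other windows, score and width minimums, equal numbers of top peaks and stricter overlap. Overlap code was tested on simulated data. Intervals (scipy 1.17.1), overlaps and counts (Python 3.11.15 with pandas 2.3.3 and numpy 2.4.6) and plots (matplotlib 3.10.9) were computed from the lists.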

Additional observations from a re-analysis of the deposited data

Results flagged for a closer look

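Adding I-BET moved the number of members with a MAX peak in opposite directions without and with RANKL, which is why it is listed here. Without RANKL the number was 5 higher with I-BET than in untreated cells (31 against 26). With RANKL it differed by -5 (22 with the combination against 27 with RANKL alone). Over all coding genes the differences were 6334 and -2409, in the same directions as at the members. Each number comes from 1 peak list, and the difference between both was not tested. With the 6307 top peaks of each MAX list the member counts were 23 untreated, 22 with RANKL, 25 with I-BET and 22 with the combination. The counts over all coding genes were then 5069, 5044, 5886 and 5139, so with equal numbers of peaks the opposite directions were not seen, either at the members or over all genes.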

How the results depend on the processing

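Each of the 27 counts was recomputed under the alternatives, giving 170 values, of which 153 stayed within 1.5 times the reported count. The number of members with a MAX peak ranged from 21 to 26 (untreated), 22 to 27 (RANKL), 25 to 31 (I-BET) and 17 to 22 (combination). Windows of no flank or 5 kb, start sites, peaks of at least 100 bp and 50% of the peak inside the window moved no count beyond that.

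With the higher-scoring 50% of each list, I-BET added 9 members for MAX against untreated, and the combination added 1 against RANKL. MYC was then at 1 member in untreated cells, RANKL added 1 and lost 0, and I-BET lost 1. With equal numbers of top MAX peaks, RANKL added 0 and lost 1, I-BET lost 2, and the combination added 2 and lost 2 against RANKL and lost 3 against I-BET. With equal numbers of top MYC peaks (136, the combination left out), 1 member had MYC in untreated cells and 1 with RANKL, RANKL added 1 and lost 1, and I-BET lost 1. Shorter lists hold fewer peaks by construction. At 50% reciprocal overlap 0 of the 2 untreated member MYC peaks matched a MAX peak, these MYC peaks being 177 and 200 bp wide and the MAX peaks 880 and 691 bp. No paired analysis was possible because each group has 1 list. Depth is unknown, so a missing peak does not show missing binding.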

Other observations

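Among the 81 related genes, MYC peaks were listed at 7, while 97.7% of all coding genes had none in any treatment. Slc19a1, the reduced folate carrier, had one at rank 282 in untreated cells, centred 16 bp from its start, and one at rank 88 with RANKL, centred 594 bp from it. Mat2a, which makes the methyl donor S-adenosylmethionine, had MYC at rank 289 in untreated cells and 189 with RANKL. Dctd, dCMP deaminase, had it at ranks 120 and 213. Sfxn1, a mitochondrial serine carrier, had MYC in untreated cells alone (rank 215), as did Ampd2, an AMP deaminase (rank 78, centred at -1273 bp from the start). Gmpr2, a GMP reductase, had it with RANKL alone (rank 66), centred at -1 bp from its start.

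Uck2, a uridine-cytidine kinase, was the related gene with a MYC peak under I-BET. That peak was 90 bp wide at rank 130 of 136 and centred 1328 bp from the start. The untreated MYC peak, rank 310 of 312, was centred 453 bp from the start. MAX at Uck2 held best ranks 509, 1114, 97 and 160 in the untreated, RANKL, I-BET and combination lists.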
